A study of Mus musculus with 10 samples.

Results

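Pol II S2P, the form of RNA polymerase II that bears phosphate on serine 2 of the C-terminal repeat, was mapped by CUT&RUN in proliferating satellite cells of mouse muscle grown in culture (MuSCs), and the peaks described here are those that lay away from genes and away from H4K20me1. They are the autosomal Pol II S2P peaks for which the deposited table lists no gene and which shared no base with any H4K20me1 peak. There were 6670 such peaks, 13% of the 51322 Pol II S2P peaks. Another 6772 autosomal peaks without a listed gene overlapped an H4K20me1 peak and are used for comparison. In CUT&RUN a nuclease is tethered by the antibody and cuts out the bound chromatin, whose DNA is then sequenced.

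Control cells (Ctrl) carried Pax7CreERT/Suv4-20h1WT and mutant cells (sKO) Pax7CreERT/Suv4-20h1KO. Suv4-20h1 is another name of Kmt5b, the gene of an H4K20 methyltransferase. Both genotypes thus carried the tamoxifen-inducible Cre at Pax7, so that deletion was restricted to cells that express Pax7, the satellite cells in muscle, which were then grown in culture. Each genotype had 2 Pol II S2P libraries from separate biological replicates and 2 H4K20me1 libraries. The 2 IgG libraries were not used here, so the signal that open chromatin gives without a specific antibody was not tested.

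The elongating form of Pol II carries serine 2 phosphorylation, which builds up along a gene and stays on the polymerase as it runs past the polyadenylation site before it terminates. Signal between genes can therefore come from transcription that continues past a gene end, from unannotated transcripts, and from enhancers, which are themselves transcribed. H4K20me1 is laid down by Kmt5a and turned into the dimethylated form by Kmt5b and Kmt5c, and in most cells it covers the bodies of transcribed genes. Enhancers of proliferating myoblasts are known to hold binding sites of AP-1, the Fos and Jun dimer induced by growth signals, and of the basic helix-loop-helix factors such as MyoD, which bind E-boxes.

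The values are scores, the coverage of each peak after spike-in normalisation as deposited, in whole numbers and not divided by length. Summed over all Pol II S2P peaks the scores came to 3257665 and 4243685 in Ctrl against 4885638 and 3435908 in sKO. The sKO replicate 1 library was thus the highest and the Ctrl replicate 1 library the lowest, and the genotypes overlapped. Of 7 satellite cell markers, 5 had Pol II S2P peaks, with summed scores of 4753 and 5221 in Ctrl against 5571 and 3683 in sKO. The 2 peaks listed with Myod1 gave 1329 and 1110 in Ctrl against 887 and 649 in sKO, both sKO libraries lower, while Myf5 and Cdh15 had none. Of 4 endothelial markers 2 had peaks, summing to between 133 and 256, with none at Cdh5 or Kdr, and of the fibro-adipogenic markers Dpt alone had a peak. The 4 of 5 leukocyte markers with peaks summed to between 946 and 1492, of which Cd68 alone gave 840 to 1308 from 1 peak, and Ptprc had none. The 2 peaks listed with Kmt5b itself summed to 24 and 62 in Ctrl against 48 and 22 in sKO, so Pol II S2P did not check the genotype labels.

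The sequences at the centres of 6 of these peaks are shown. Each was among the peaks named by score or by nearby gene and held the AP-1 motif TGANTCA, which 30.3% of the 6670 peaks held within 300 bases of sequence around the centre. They are read from GRCm38 (mm10), 5′ to 3′, with TGANTCA and the E-box CAGCTG in capitals.
Between Malat1 and Neat1, chr19:5811614-5811913, plus strand: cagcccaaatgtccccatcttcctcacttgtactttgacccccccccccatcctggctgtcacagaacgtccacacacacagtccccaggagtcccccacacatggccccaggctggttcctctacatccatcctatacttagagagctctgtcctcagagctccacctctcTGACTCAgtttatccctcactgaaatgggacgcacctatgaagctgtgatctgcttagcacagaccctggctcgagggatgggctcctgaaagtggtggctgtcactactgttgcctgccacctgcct
Past the end of Ubb, chr11:62555359-62555658, plus strand: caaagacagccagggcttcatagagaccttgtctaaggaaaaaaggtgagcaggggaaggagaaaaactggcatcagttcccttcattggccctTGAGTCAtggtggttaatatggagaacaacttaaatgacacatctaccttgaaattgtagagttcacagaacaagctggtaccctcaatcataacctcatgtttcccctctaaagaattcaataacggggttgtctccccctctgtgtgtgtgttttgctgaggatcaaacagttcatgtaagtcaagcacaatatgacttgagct
Upstream of Ier3, chr17:35813232-35813531, plus strand: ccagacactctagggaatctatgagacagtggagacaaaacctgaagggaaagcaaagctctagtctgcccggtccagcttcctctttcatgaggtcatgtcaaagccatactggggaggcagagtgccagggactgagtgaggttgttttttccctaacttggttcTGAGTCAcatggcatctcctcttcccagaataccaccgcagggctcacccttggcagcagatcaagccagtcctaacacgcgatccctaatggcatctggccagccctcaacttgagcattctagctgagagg
Upstream of Myod1, farther member, chr7:46341529-46341828, plus strand: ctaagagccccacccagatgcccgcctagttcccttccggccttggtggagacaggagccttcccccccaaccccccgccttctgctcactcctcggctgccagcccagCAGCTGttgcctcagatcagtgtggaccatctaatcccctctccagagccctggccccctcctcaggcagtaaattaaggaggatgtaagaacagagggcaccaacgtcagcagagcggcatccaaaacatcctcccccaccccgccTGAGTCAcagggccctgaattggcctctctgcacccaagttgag
Past the end of Cxcr4, chr1:128508927-128509226, plus strand: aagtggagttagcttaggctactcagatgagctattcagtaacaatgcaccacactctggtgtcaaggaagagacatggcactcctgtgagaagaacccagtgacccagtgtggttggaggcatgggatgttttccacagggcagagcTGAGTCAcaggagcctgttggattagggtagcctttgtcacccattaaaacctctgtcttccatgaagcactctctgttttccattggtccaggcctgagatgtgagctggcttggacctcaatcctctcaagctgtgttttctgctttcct
Upstream of Myod1, nearer member, chr7:46353102-46353401, plus strand: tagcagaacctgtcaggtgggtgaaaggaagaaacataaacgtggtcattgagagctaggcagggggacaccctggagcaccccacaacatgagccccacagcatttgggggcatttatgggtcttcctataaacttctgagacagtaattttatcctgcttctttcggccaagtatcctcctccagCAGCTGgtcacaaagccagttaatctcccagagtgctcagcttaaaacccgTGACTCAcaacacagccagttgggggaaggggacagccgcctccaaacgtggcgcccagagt
Both Myod1 sequences held an AP-1 motif and a CAGCTG, and the other sequences held AP-1 only. The Cxcr4 peak lay 78.7 kb past the end of that gene and the Ubb peak 0.796 kb past its own. A match of letters describes the window and does not show that a factor was bound.

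The peaks were short and mostly weak. Their length had quartiles of 244 and 547 bases around a median of 365.5, and the longest spanned 6126 bases. The median score was 34 and 45 in the Ctrl libraries against 56 and 39 in the sKO libraries. Per kb of peak the median was 96.0 and 128 in Ctrl against 156 and 110 in sKO. The intergenic peaks that overlapped H4K20me1 gave 86.8 and 125 per kb in Ctrl against 160 and 108 in sKO. The levels of the 2 kinds lay close to each other in every library and the libraries differed more than the kinds. Averaged over the 4 libraries, the score was 19.8 at the 10th percentile of the 6670 peaks and 136 at the 90th, and 29 peaks exceeded 500. The score followed length closely (Spearman rho 0.926 across peaks, a description, since both depend on where the peak was cut off). Peaks just outside the limit, the 303 within 1 kb of an H4K20me1 peak, had a median mean score of 35.8, and the 401 intergenic peaks lying partly inside an H4K20me1 peak had 74.5. Per kb the former gave 82.8 and 123 in Ctrl against 168 and 101 in sKO. The latter gave 107 and 137 in Ctrl against 181 and 121 in sKO, so the difference was smaller per length.

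Intergenic Pol II S2P peaks met H4K20me1 less often than peaks with a gene. H4K20me1 peaks were met by 50.4% of autosomal Pol II S2P peaks without a listed gene and by 69.4% of those with one, and they covered 25.3% of the autosomal sequence and 11.7% of the sequence outside GENCODE genes. The median distance from one of the 6670 peaks to the nearest H4K20me1 peak was 11.2 kb, with quartiles of 4.05 and 31.1 kb, and 586 peaks (8.79%) lay 100 kb or more from any. By chromosome, the peaks made up between 9.82% (chromosome 2) and 21% (chromosome 13) of the Pol II S2P peaks. The 3604 H4K20me1 peaks nearest to them had a median sKO minus Ctrl difference of 1.32 on the log2 scale of H4K20me1 scores, beside 1.14 over all autosomal H4K20me1 peaks.

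Peaks outside H4K20me1 lay farther from genes than those inside. Places relative to a gene start or end were taken from the nearest protein-coding or long non-coding GENCODE gene. That gene ended towards the peak for 55.4% of the 6670 peaks and started towards it for 44.2%. An annotated gene was overlapped by 31 peaks although the table listed none. By comparison, 71.5% of the intergenic peaks overlapping H4K20me1 lay downstream of a gene end. A distance of 5 kb or more from any gene, counting all annotated types, was found for 54.7% of the peaks outside and for 24.5% of those overlapping H4K20me1. Among protein-coding and long non-coding genes, the only types searched for this, the nearest was protein-coding for 71.8% of the peaks and a lincRNA for 23.2%.

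**Figure D1:**
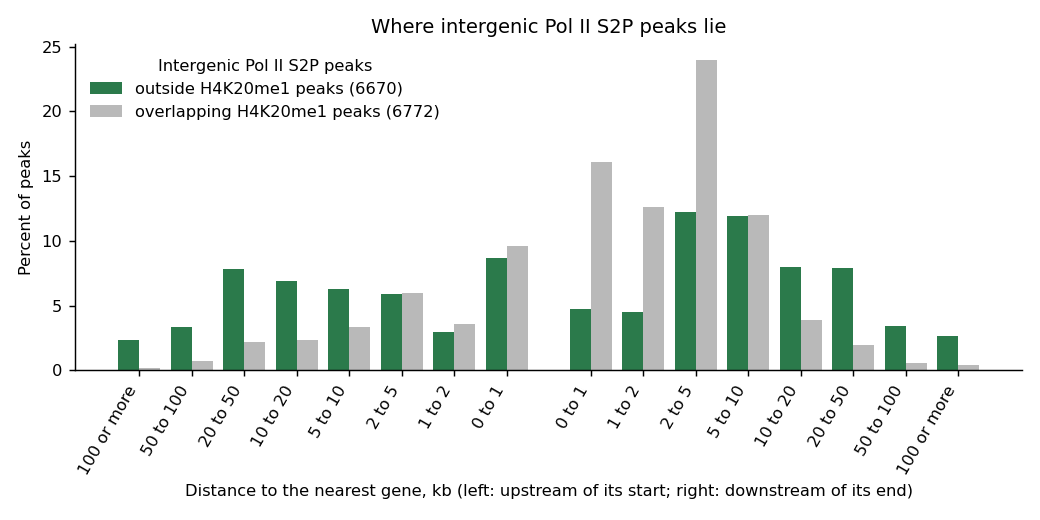
Percent of intergenic Pol II S2P peaks (vertical axis) by distance in kb to the nearest gene, upstream of its start on the left and downstream of its end on the right, for the 6670 peaks outside H4K20me1 (green) and the 6772 overlapping it (grey). Bins widen away from the gene, and only protein-coding and long non-coding genes were used. Within 1 kb past a gene end lay 4.71% of the green peaks and 16.1% of the grey, and at 20 to 50 kb past an end 7.93% and 1.96%.

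The 1431 peaks within 5 kb past a gene end had median scores of 32 and 43 in Ctrl against 56 and 37 in sKO. The 1399 peaks lying 5 to 50 kb upstream of a gene start had 39 and 51 in Ctrl against 58 and 43 in sKO. Per kb the former gave 89.6 and 123 in Ctrl against 154 and 105 in sKO, and the latter 102 and 133 in Ctrl against 153 and 113 in sKO. Upstream peaks were thus slightly higher per length in Ctrl, and in sKO the libraries gave no common order.

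Few of the peaks had the base composition of CpG islands. The median GC content of the 300-base windows was 47.3% and the ratio of observed to expected CpG was 0.197. A ratio over 0.6, as CpG islands have, was found in 6.16% of the windows, in 4.65% of those of intergenic peaks overlapping H4K20me1 and in 24.7% of those of peaks listed with a gene outside H4K20me1. Within 5 kb upstream of a gene start it was found in 23.5% of the 1169 peaks, and in 2.50% of the peaks 5 kb or more from any gene. Repeats covered a median of 8% of a window.

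AP-1 and E-box motifs were the sequence features most frequent at the centres. Motifs were searched on both strands, and CAGCTG is one form of the E-box CANNTG. AP-1 (TGANTCA) was present in 30.3% of the 300-base windows, beside 16.3% for intergenic peaks overlapping H4K20me1, 21.9% for peaks with a gene outside H4K20me1, 16.9% for peaks with a gene overlapping it, 19.7% over all autosomal peaks and 7.84% of RefSeq promoters of the same length. CAGCTG, the form that MyoD prefers, was present in 30.5%, beside 22.0%, 27.3%, 23.7%, 25.2% and 16.3% in the same order. CATTCC, bound by the TEAD factors that work with Yap, was present in 23.4%, beside 18.7% over all autosomal peaks and 14.6% of promoters. TGTGGTT, the RUNX motif, was in 12.9%, beside 10% and 5.32%. These 4 motifs were thus more frequent than over all autosomal peaks.

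Other motifs gave no such difference or the opposite one. CANNTG was present in 83.3% of the windows, beside 80.9% over all autosomal peaks and 72.2% of promoters. TATTTATA, a form of the MEF2 motif, was in 2.13%, beside 2% and 1.73%. CCACNAGG, a part of the CTCF motif, was in 5.56%, beside 5.96% and 5.05%. GGGCGG, the GC box of promoters, was in 9.96%, beside 15.0% and 36.0%.

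The share of windows with AP-1 varied with position among the peaks. It was 21.5% within 5 kb past a gene end, 21.7% within 5 kb upstream of a start, 39.0% at 5 to 50 kb upstream and 42.3% at 50 kb or more from a gene. CAGCTG followed the same order at 22.3%, 25.1%, 36.5% and 40.7%. Of the peaks 100 kb or more from any H4K20me1 peak, 42.7% held AP-1. Among peaks 5 kb or more from any gene, AP-1 was present in 36.6% of those outside H4K20me1 and 25.2% of those overlapping it. This limit did not match distance between the kinds. At 5 to 10 kb past a gene end lay 11.9% of the peaks outside and 12.0% of those overlapping, and at 20 to 50 kb 7.93% and 1.96%. With the peaks split into 4 equal bands by mean score, AP-1 was present in 25.5% of the lowest band and in 33.3% and 32.7% of the upper bands, a smaller range than that with position.

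**Figure D2:**
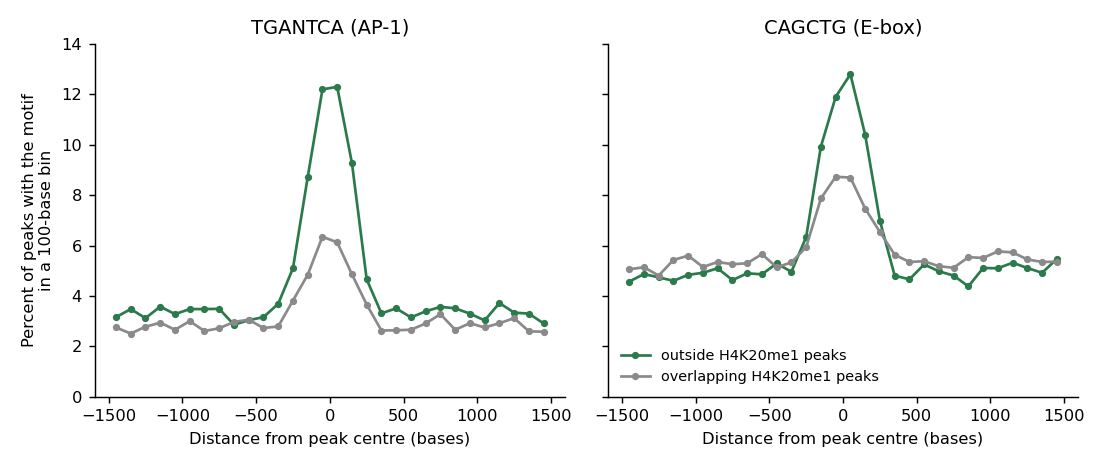
Percent of peaks (vertical axis) with TGANTCA (left) or CAGCTG (right) in each 100-base bin by distance from the peak centre, for intergenic Pol II S2P peaks outside (green) and overlapping (grey) H4K20me1. In the green peaks AP-1 reached 12.3% in the 2 central bins against a mean of 3.29% in the 10 outermost, and CAGCTG 12.4% against 4.96%.

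Both motifs thus peaked at the centre in both kinds of intergenic peak. For peaks overlapping H4K20me1 the central and outer values were 6.24% and 2.76% for AP-1 and 8.71% and 5.37% for CAGCTG. The outer bins differed little between the kinds, and the central bins differed most.

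The 10 peaks with the highest scores lay 0.058 to 8.52 kb from the nearest protein-coding or long non-coding gene. The highest, chr10:80158492-80162418, began 0.124 kb past the end of Midn, a gene of a nuclear and nucleolar protein, with Cirbp, a cold-inducible RNA-binding protein, downstream. Its scores were 1654 and 1735 in Ctrl against 1712 and 1273 in sKO, and sKO replicate 2 alone was low. The next, chr19:5809491-5814036, lay between Malat1 and Neat1, which encode abundant nuclear long non-coding RNAs, and is shown above by its central sequence. It had 1100 and 1397 in Ctrl against 1961 and 1323 in sKO, so the groups overlapped. The peak chr15:77059692-77065818, the longest, between the ends of Apol6 and Rbfox2, had 749 and 1073 in Ctrl against 2022 and 1070 in sKO, where sKO replicate 1 alone was high.

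The peak chr10:128052459-128057344, between Naca and Ptges3, a co-chaperone of Hsp90, had 833 and 1082 in Ctrl against 1742 and 1053 in sKO. The peak chr11:62554009-62557007, past the end of the polyubiquitin gene Ubb, had 642 and 811 in Ctrl against 931 and 645 in sKO. The peak chr7:127477350-127479141 ended 0.058 kb before Fbrs and was the only one of the 10 highest with a CpG ratio over 0.6 (0.766). Its scores were 1098 and 1291 in Ctrl against 1148 and 998 in sKO. Over all tested autosomal peaks (mean score over 30), both sKO scores exceeded both Ctrl scores in 17.6% and lay below them in 6.77%, so overlap was common. Among the 10 highest peaks the genotypes overlapped in 9. In the remaining one, chr5:142821257-142824090, upstream of the start of Tnrc18, the scores were 853 and 910 in Ctrl against 838 and 705 in sKO, or -0.20 as a log2 fold change with an unadjusted limma p of 0.624.

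**Figure D3:**
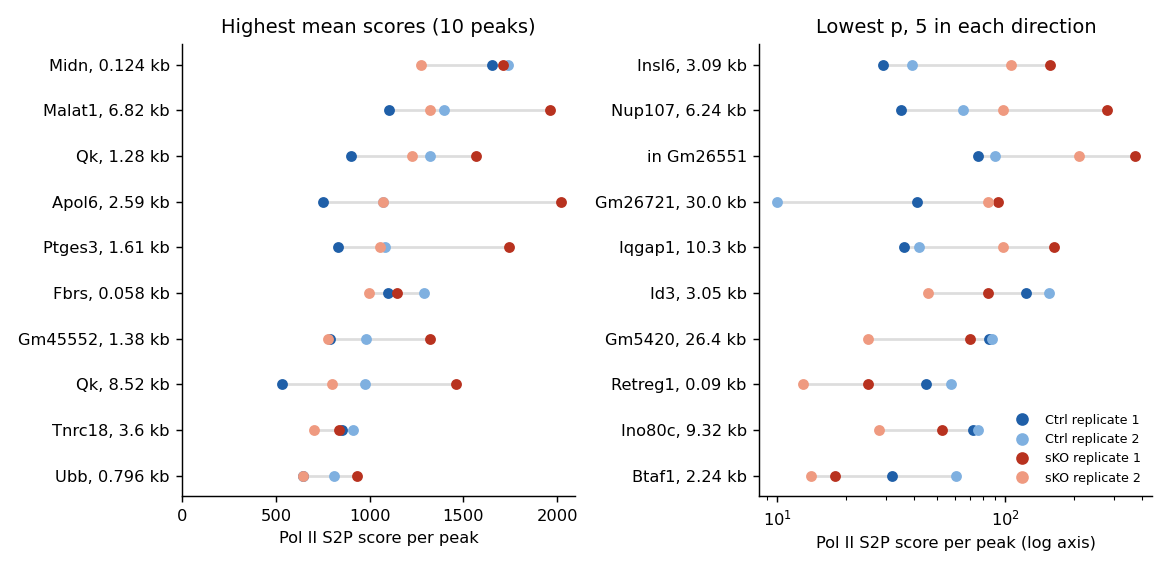
Pol II S2P scores per library (horizontal axis, linear on the left from 0 and logarithmic on the right) for the 10 intergenic peaks outside H4K20me1 with the highest mean score and for the 10 named by their difference between genotypes, each labelled with the nearest gene and its distance. Blue points are Ctrl and red points sKO libraries. The genotypes overlap in 9 of the 10 on the left. Over all tested autosomal peaks both sKO scores are above both Ctrl scores in 17.6% and below in 6.77%. Those on the right were called or, failing that, had the lowest p among peaks whose genotypes do not overlap.

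Some of the peaks followed each other in stretches. With at most 10 kb between neighbours, the 6670 peaks formed 4221 stretches, of which 3008 were single peaks and 158 held 5 or more peaks. The stretch past the end of Qk, which encodes the RNA-binding protein quaking, held 11 peaks over 20.7 kb (chr17:10180674-10201325), including 2 of the 10 highest peaks. Summed, it scored 2166 and 3397 in Ctrl against 4880 and 3033 in sKO, and the genotypes overlapped. The stretch between the ends of the collagen genes Col3a1 and Col5a2 (chr1:45349973-45371504) held 12 peaks with sums of 1168 and 1689 in Ctrl against 2570 and 2033 in sKO. There both sKO scores exceeded both Ctrl scores in 8 of the 10 peaks tested and in the sum. The sums differed by 0.70 on the log2 scale with a pooled SD of 0.32, and no peak of the stretch was called. Among all 4525 tested peaks both sKO scores were above in 21% and below in 7.49%, beside 17.6% and 6.77% of all tested autosomal peaks. Past the end of Cfl2, the gene of the muscle cofilin, 18 peaks over 24.1 kb (chr12:54834165-54858294) summed to 809 and 1117 in Ctrl against 1499 and 772 in sKO, and in 0 of the 12 tested did the genotypes separate. Not all stretches lay wholly past gene ends. Between Rbm12b2 and Rbm12b1, 8 of the 18 peaks of a stretch lay downstream of a gene end, and between Stam and Tmem236 10 of 15. Both sKO scores exceeded both Ctrl scores there in 7 of 13 and 2 of 10 tested peaks, and past Qk in 2 of 8. The peaks of a stretch share their surroundings and are not independent.

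**Figure D4:**
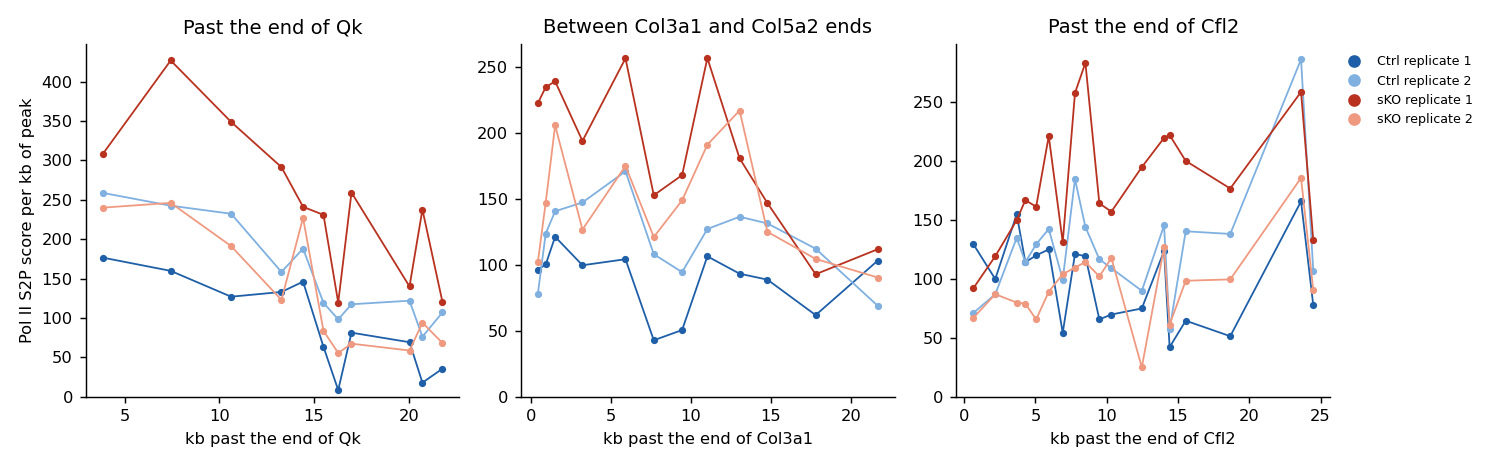
Pol II S2P score per kb of peak (vertical axis, from 0) against distance in kb past the gene end for 3 stretches of intergenic peaks, with 1 line per library (blue Ctrl, red sKO). Past Qk the peaks beyond 15 kb are lower than those within 10 kb in every library, between Col3a1 and Col5a2 the sKO levels are lowest near the Col5a2 end, and past Cfl2 no such decline is seen.

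The comparison of genotypes asked whether Pol II S2P at these peaks differed after deletion of Kmt5b. The library median of log2(score + 1) over the 4525 tested peaks (mean score over 30) was 5.70 and 6.04 in Ctrl against 6.32 and 5.86 in sKO, so the groups overlapped. The means differed by 0.22 (5.87 ± 0.24 in Ctrl against 6.09 ± 0.33 in sKO, SD, n = 2 each), with an exact two-sided permutation p of 0.667, where 0.333 is the smallest that 2 against 2 libraries allow. Without sKO replicate 1 the difference was -0.014, so its direction rested on that library. The median limma fold change was 0.16, with quartiles of -0.10 and 0.45, beside 0.14 over all 33607 tested autosomal peaks, 0.30 for the intergenic peaks overlapping H4K20me1 and 0.04 for peaks with a gene outside it. With the libraries scaled to equal totals, the median over all tested peaks was 0.00 and that of the 4525 peaks 0.02. The peaks held 11.32% and 11.20% of the autosomal score in Ctrl and 11.49% and 11.47% in sKO, a difference of 0.223 percentage points (exact permutation p 0.333), and that of peaks 5 kb or more from H4K20me1 was -0.022.

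Few single peaks passed the test. With limma and Benjamini-Hochberg adjustment over all tested autosomal peaks, 3 of the 4525 peaks (0.0663%) were higher in sKO (adjusted p under 0.1, with a log2 difference over 0.5), where 0.0268% of all tested peaks were. None was called lower, where 0.00298% of all tested peaks were. By limma without the mean-variance trend 30 were higher (0.663%), beside 0.25% of all, and 0 lower, beside 0.0208%. At an unadjusted limma p under 0.05 there were 235 peaks (5.19%), 232 of them higher, beside 3.72% of all tested peaks. Both sKO scores exceeded both Ctrl scores in 949 peaks (21%), beside 17.6% of all, and lay below them in 339 (7.49%), beside 6.77%. On equal totals, 143 peaks (3.16%) were called higher and 36 (0.796%) lower, beside 2.12% and 0.831% of all. After quantile normalisation 105 (2.32%) were called higher and 19 (0.42%) lower, beside 1.52% and 0.431%. The shares of the peaks were thus slightly above those of all peaks for higher scores and near them for lower ones. Among the intergenic peaks overlapping H4K20me1, both sKO scores were above in 25.9% and below in 4.05%, and 5 of 4490 were called higher. The excess of higher scores was thus not particular to the peaks outside H4K20me1.

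The peak called with the largest change, chr19:29317447-29318251, lay between the converging ends of Jak2, a cytokine receptor kinase, and Insl6. It scored 29 and 39 in Ctrl against 158 and 106 in sKO, or 1.91 ± 0.45 higher as log2 (SE; adjusted p 0.0719 by limma). Such an SE follows the mean score and is not the spread of the peak's own replicates. The peak chr10:117798942-117800124, between Nup107 and Rap1b, scored 35 and 65 in Ctrl against 280 and 98 in sKO (1.77 ± 0.42, limma adjusted p 0.0993). The peak chr11:52135718-52136799, which overlaps the lincRNA gene Gm26551, scored 76 and 90 in Ctrl against 370 and 212 in sKO (1.75 ± 0.40, limma adjusted p 0.0647). Each lay 2.48 to 3.65 kb from an H4K20me1 peak, and none held AP-1 or CAGCTG in its window. With any single library left out their log2 differences lay between 1.02 and 2.53, and none kept its call with 1 library against 2.

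Among peaks with lower scores in sKO, the one of lowest p was chr4:136148808-136149651, 3.05 kb past the end of Id3, a myogenic inhibitor that binds E-box factors. It scored 123 and 156 in Ctrl against 84 and 46 in sKO, which as log2 is -1.14 ± 0.42 (SE; adjusted p 0.865 by limma). The groups did not overlap there, as the choice of the peak required, and the test was not passed.

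Peaks near H4K20me1 had higher relative scores in sKO than those 20 kb or more from it, and peaks past gene ends than peaks upstream of genes. Both differences were larger than the spread between replicates. To set subsets against each other on 1 scale, each peak's log2 score was taken relative to its own mean over the 4 libraries, and the subset medians were compared. The 1282 tested peaks within 5 kb of an H4K20me1 peak minus the 1611 at 20 kb or more gave -0.13 and -0.04 in Ctrl against 0.15 and 0.02 in sKO, a difference of 0.17 with a pooled SD of 0.08. The 2460 downstream of a gene end minus the 2042 upstream of a start gave -0.10 and -0.04 in Ctrl against 0.10 and 0.02 in sKO, a difference of 0.13 with a pooled SD of 0.05. Peaks with CAGCTG minus those without gave 0.09 and 0.06 in Ctrl against -0.06 and -0.07 in sKO, a difference of -0.14 with a pooled SD of 0.02. In these 3 contrasts the genotypes did not overlap and the exact two-sided permutation p was 0.333, the smallest possible. For AP-1 the difference was 0.02 with a pooled SD of 0.04 (exact permutation p 1.0), within the spread, and the medians of log2 score itself differed by 0.04 with a pooled SD of 0.02 (exact permutation p 0.333). These subset contrasts were chosen after the values were seen. The order by place and by CAGCTG was not particular to these peaks. Among intergenic peaks overlapping H4K20me1 the median limma fold change was 0.32 downstream and 0.20 upstream of genes, and 0.21 with CAGCTG and 0.32 without.

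Against the intergenic peaks overlapping H4K20me1, the library medians of the peaks outside differed by 0.16 and 0.02 in Ctrl against -0.05 and 0.03 in sKO on the log2 scale. The difference between genotypes was -0.11 with a pooled SD of 0.08 (exact two-sided permutation p 0.667), and the groups overlapped. With each peak relative to its own mean the values were 0.12 and 0.01 in Ctrl against -0.10 and -0.04 in sKO, a difference of -0.13 with a pooled SD of 0.06 (exact permutation p 0.333). Relative to peaks overlapping H4K20me1, the peaks outside thus had lower values in both sKO libraries on the latter measure only.

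GC content also differed between these subsets. With the tested peaks split into 4 equal bands of GC, the median limma fold change was 0.28 in the lowest band and 0.20, 0.15 and 0.05 in the bands above it. The median GC was 49.3% with CAGCTG and 47.3% without it, 47.3% downstream and 49.0% upstream of genes, and 48.3% near and 47.0% far from H4K20me1. The peaks with CAGCTG and those upstream thus had the higher GC and the lower sKO values, while the peaks near H4K20me1 had the higher GC and the higher sKO values. Within the bands of GC the CAGCTG difference ranged from -0.15 to -0.07, the downstream minus upstream difference from 0.06 to 0.18, and the near minus far difference from 0.04 to 0.34. Each of the 3 kept its direction in all 4 bands, and in the highest band the near minus far difference was within its pooled SD of 0.05. The AP-1 difference changed direction between bands, from -0.08 with a pooled SD of 0.10 in the lowest to 0.13 with a pooled SD of 0.01 in the highest, where the genotypes did not overlap (exact permutation p 0.333). Whether GC took part in the remaining differences was not tested.

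**Figure D5:**
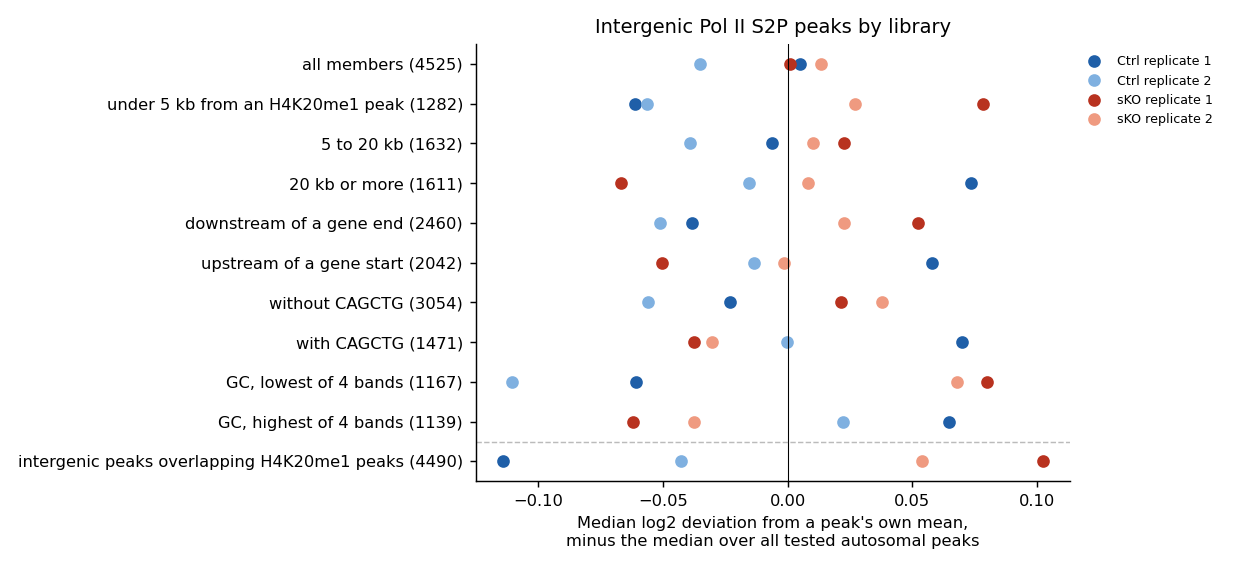
Median log2 deviation of each subset's peaks from their own mean over 4 libraries, minus the median over all tested autosomal peaks (horizontal axis), 1 point per library (blue Ctrl, red sKO), with the number of tested peaks in parentheses. The points of all 4525 peaks lie between -0.04 and 0.01, and those of peaks under 5 kb from H4K20me1 between -0.06 and 0.08 with both sKO libraries on the right.

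Such peaks lay near many genes of muscle identity, growth response and matrix. Each peak was assigned to the nearest coding gene start within 100 kb, and 2771 of 20780 autosomal coding genes (13.3%) received at least 1. Of 37 myogenic genes 20 (54.1%) did, of 24 immediate early genes 13 (54.2%), of 35 matrix and cytoskeleton genes 22 (62.9%), and of 18 markers of other cell types 1 (5.56%), the endothelial receptor gene Kdr. Genes differ in expression and in the size of the surrounding intergenic space, and these shares were not adjusted for either. The gene lists were also chosen with earlier results of these data known, so the shares are not independent of that choice.

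The myogenic genes held 70 peaks, of which 54 were tested. Myod1, the gene of the myoblast determination factor, had 8 peaks with summed scores of 1400 and 1506 in Ctrl against 1419 and 970 in sKO. The nearer peak shown above, chr7:46352676-46353826, lay 23.2 kb upstream of its start and scored 266 and 294 in Ctrl against 253 and 158 in sKO. The farther, chr7:46341200-46342156, lay 34.8 kb upstream and scored 294 and 292 in Ctrl against 331 and 218 in sKO. At the nearer peak both sKO libraries were lower and at the farther the groups overlapped. Des, the gene of the muscle intermediate filament desmin, had a peak 15.6 kb from its start (chr1:75343965-75345461) with 467 and 595 in Ctrl against 548 and 323 in sKO.

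Over the 54 tested myogenic peaks 0 were called in either direction by limma and 3 had an unadjusted limma p under 0.05. Of the 3721 tested peaks near any coding gene, 3 were called higher, 0 were called lower and 216 had an unadjusted limma p under 0.05. The median log2 fold change of the myogenic peaks was -0.12, beside 0.17 over those 3721. Both sKO scores were under both Ctrl scores in 13 of the 54 (24.1%) and over them in 3 (5.56%), beside 7.28% and 21.5% of the peaks near any coding gene. Id3, with 10 peaks, summed to 656 and 757 in Ctrl against 617 and 463 in sKO, and Id1, another inhibitor of E-box factors, with 8 peaks, to 674 and 821 in Ctrl against 947 and 553 in sKO. Cxcr4, a chemokine receptor of satellite cells, had 388 and 495 in Ctrl against 488 and 303 in sKO over 4 peaks. By summed scores, 2 of the 20 genes separated the genotypes, Id3 with lower and Pax7, the satellite cell factor, with higher sums in sKO. Pax7 had 1 peak, with 15 and 34 in Ctrl against 85 and 67 in sKO. Over the 2771 genes with a peak, 17.8% had higher and 5.45% lower sums in both sKO libraries.

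The immediate early genes held 36 peaks, of which 28 were tested and 0 called, with a median log2 fold change of 0.13. Fos, a subunit of AP-1, had 4 peaks with 504 and 641 in Ctrl against 598 and 410 in sKO, the highest of them 23.9 kb from its start (chr12:85497387-85498261). Klf6, a zinc finger factor, had 6 peaks with 294 and 428 in Ctrl against 442 and 408 in sKO. Ier3, a growth-response gene, had the peak shown above (chr17:35812894-35813868), with 266 and 331 in Ctrl against 310 and 314 in sKO. In these 3 the genotypes overlapped. The sums separated in 2 of the 13 genes, both higher in sKO (15.4%, beside 17.8% of the 2771 genes with a peak). Fosb, an AP-1 subunit, had 72 and 100 in Ctrl against 188 and 113 in sKO, and Ier5, a growth-response gene, had 104 and 126 in Ctrl against 207 and 157 in sKO. Of the 28 tested peaks, 6 (21.4%) were higher and 1 (3.57%) lower in both sKO libraries, near the shares over peaks of any coding gene.

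The matrix and cytoskeleton genes held 82 peaks, of which 57 were tested and 0 called, with a median log2 fold change of 0.17. Both sKO scores exceeded both Ctrl scores in 14 of the 57 (24.6%) and lay below them in 4 (7.02%), near the 21.5% and 7.28% over peaks of any coding gene. Within the Col3a1 stretch, the peak chr1:45359887-45361575 scored 180 and 215 in Ctrl against 434 and 323 in sKO, or 0.93 as a log2 fold change with an unadjusted limma p of 0.0178 and an adjusted p of 1.0. Sparc, the gene of a collagen-binding matrix protein, had 4 peaks with 475 and 669 in Ctrl against 853 and 565 in sKO. Col1a2, a chain of type I collagen, had 6 peaks with 464 and 757 in Ctrl against 804 and 526 in sKO. Actb, cytoplasmic beta-actin, had 8 peaks with 425 and 562 in Ctrl against 585 and 442 in sKO. The sums of Sparc, Col1a2 and Actb overlapped between the genotypes. Besides Col3a1, Ccn1, a matricellular target of Yap, separated them among the 22 genes, with 273 and 301 in Ctrl against 474 and 359 in sKO over 4 peaks. Genes with higher sums in both sKO libraries were thus 9.09% of the 22, beside 17.8% of the 2771 genes with a peak.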

How the data were processed

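The authors trimmed reads with Trimmomatic 0.39, aligned them to mm10 (GRCm38) with STAR 2.7.3a and removed duplicates with Picard 2.21.7, and the submitters' processing notes also name FastQC 0.11.8, SICER 0.0.41 and MACS2 2.1.1. The deposited values are scores per union peak, described as spike-in normalised coverage, and were not treated as read counts. The read totals that the study lists per library were not used here, and scores do not give reads per peak, so no counting interval is given. Spike-in counts were not used here. The authors also deposited the overlap of each peak with its gene and its distance to a gene start, which were not used here. Coordinates are as deposited. Genes came from GENCODE M21 and promoters from RefSeq.

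Autosomal Pol II S2P peaks with a mean score over 30 were tested with limma 3.58.1 (R 4.3.3, eBayes with trend) on log2(score + 1), which understates changes of low scores. Calls needed an adjusted p under 0.1 together with a log2 difference beyond 0.5 in either direction. The procedure was tested on simulated data. Medians, shares and motif counts were computed with Python 3.11.15, pandas 2.3.3 and pysam 0.24.0. Exact permutation p-values give the share of relabellings of the 4 libraries whose difference of means was at least the observed one. They rest on 2 libraries per group and do not measure the spread between replicates. The limma SE followed the mean score of a peak. It was 0.39 both for a peak of mean 305.2 and for one of mean 323.0 whose libraries differed more. Limma SEs and p-values thus do not measure the spread of a peak's own replicates. Members and gene lists were chosen with earlier results of these data known. Peaks named were the 10 of highest mean score, those called or, failing 5 a direction, of lowest p with groups that did not overlap, and up to 6 a gene list. Sequences were shown for 6 named peaks with AP-1, none from chromosome 18.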

Additional observations from a re-analysis of the deposited data

Results flagged for a closer look

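Peaks on the sex chromosomes were left out of all comparisons above. On X and Y together, 69 Pol II S2P peaks had no listed gene and overlapped no H4K20me1 peak. Their scores summed to 3657 and 4491 in Ctrl against 5427 and 3719 in sKO, so the genotypes overlapped. No control sample was used to set a background for them.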

How the results depend on the processing

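The number of peaks called higher in sKO, 3 as reported, was 143 on equal totals (3.16%, beside 2.12% of all tested peaks), 105 after quantile normalisation (2.32%, beside 1.52%), 30 by limma without the trend (0.663%, beside 0.25%), 0 with no filter on low scores, and 0 among the peaks 5 kb or more from an H4K20me1 peak or from a gene. The number called lower, 0 as reported, was 36 on equal totals (0.796%, beside 0.831%) and 19 after quantile normalisation (0.42%, beside 0.431%). Leaving out 1 library gave 0 to 1 called higher. With the replicate number as a block, 0 were called. The correlation of the deviations of same-numbered libraries was -0.075 over 4525 peaks, and the labels do not say that the numbers pair the libraries.

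The genotype difference of the library medians, 0.22, ranged from -0.014 (without sKO replicate 1) to 0.45 when 1 library was left out, and was 0.08 on equal totals. The difference from intergenic peaks overlapping H4K20me1, -0.11, ranged from -0.18 to -0.04 with 1 library left out and kept its direction under every alternative run. A replicate block cannot change a difference of library medians, so that run gave -0.11 by construction. The members' share of the score changed sign, to -0.022, among peaks 5 kb or more from H4K20me1, and ranged from 0.160 to 0.286 with 1 library left out. AP-1 was found in 39.4% of 500-base windows, which are longer by construction. Of the values for the 10 peaks named by their difference, 75 kept their direction and side of the threshold, 19 lost the call, 14 gained it and 0 reversed. Except where the construction shows it, the cause of these changes was not tested.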
